A study of Mus musculus with 16 samples.

Results

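Stop-gain alleles are single-base changes that turn a sense codon of a protein gene into a stop codon, so that the protein made from that copy would end early. Of the 48897 possible single-base changes over the 16299 positions of the mouse mitochondrial genome, 1812 were stop-gain in at least 1 of the 13 protein genes under the vertebrate mitochondrial code. They were chosen by sequence alone, from the reference bases in the deposited tables, and no measured value entered the choice. Their levels were measured in 16 bulk ATAC-seq libraries, made from flow-sorted cells of femurs from mice aged 3 months with both copies of PolG carrying D257A (PolG D257A/D257A). The 8 sorted subsets are labelled by surface markers as Thy, Thy_6C3, 6C3, CD24, CD24_CD29, CD29, CD45 and CD105, with replicates 1 and 2 of each. CD45 stands for blood cells and the others for skeletal cells. All 16 libraries share the genotype and the age, and no library of another genotype was analysed here, so every comparison below is between alleles or between sorted subsets. Neither the sorting gates nor the number of mice behind a library is in the labels. P-values therefore reflect library-to-library spread alone, and that spread may be technical. The tables hold base counts of mitochondrial DNA and no expression values, so the named subsets could not be checked against their markers.

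PolG is the polymerase that copies mitochondrial DNA, and D257A takes away its proofreading, so that copying errors are left in place. A cell holds many copies of this genome, and a mutant copy can sit beside normal ones, a state called heteroplasmy. The allele fraction is the share of reads that carry the change. How much of a low fraction came from mutant copies, and how much from errors in the reads, was not tested. The 13 genes encode core subunits of the respiratory chain: ND1 to ND6 and ND4L of complex I, CYTB of complex III, COX1 to COX3 of complex IV, and ATP6 and ATP8 of the ATP synthase, complex V. In this code TGA is read as tryptophan, and AGA and AGG, which code for arginine in the nucleus, are listed as stops. In the reference, 8 genes end in TAA, 2 end in TAG and 3 end in an incomplete codon that is completed when the transcript is polyadenylated, so none ends in AGA or AGG.

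The sequences of the codons that the results turn on are shown on the GRCm38 reference strand, 5′ to 3′, with 10 bases on each side of the changed base and the affected codon in capitals. The ND3 tryptophan codons W23 and W106 carried the stop-gain alleles with the highest mean over the 8 libraries of replicate 2 and of replicate 1. The others are the ND5 lysine codon that 2 different alleles closed, the CYTB lysine codon that stood high in 1 replicate number, the COX1 glycine codon counted under both, the ND2 leucine codon, and 2 glutamate codons and a methionine codon with nearly the same level in the 15 libraries other than Thy replicate 2.
ND3 W23, chrM:9516-9536: gttgcattcTGActcccccaa
ND3 W106, chrM:9765-9785: gcatatgaaTGAacacaaaaa
ND5 K547, chrM:13370-13390: cctaagcctaAAAacatccct
CYTB K287, chrM:14994-15014: atccccaatAAActaggaggt
COX1 G16, chrM:5363-5383: caaagatatcGGAaccctcta
ND2 L155, chrM:4367-4387: actatcattTTAatactagca
ND5 E60, chrM:11909-11929: caataatataGAAtatataat
COX2 E147, chrM:7441-7461: tctgccaataGAActtccaat
ND4 M310, chrM:11085-11105: tgaagcttcATAggagcaaca

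Allele names give the reference base, then its place in the GRCm38 mitochondrial sequence (counted from 1), then the new base, and protein changes give the lost residue, its codon number and an asterisk. Of the 1812 stop-gain alleles, 425 were transitions and 1387 were transversions. New TAA or TAG codons arose in 923 and new AGA or AGG codons in 889. Because the 13 genes lie close together, 20 of these alleles fell where 2 reading frames overlap, and 1 of them, G13560T, closed both ND5 and ND6, which are read from opposite strands. By complex, 1026 alleles (56.6%) lay in complex I genes, 468 (25.8%) in complex IV genes, 179 (9.88%) in CYTB and 139 (7.67%) in complex V genes.

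Depth was high throughout. Mean coverage ran from 6569 reads per position in CD24_CD29 replicate 2 to 77252 in CD29 replicate 1, and no position of any library had fewer than 2391. A count of 0 at the mean coverage of these libraries allows a fraction of up to 0.0457% and 0.00388%. The library labelled Thy replicate 2 stood apart from the other 15. Its T>G and A>C fractions were high in stop-gain, missense and synonymous alleles alike, and 2530 alleles of all kinds reached 1% there, against 98 to 416 in each of the other 15. Other transversions were raised there too, by less. The mean of its stop-gain G>T alleles was 0.617%, against 0.280 to 0.361% in the other 15. For C>A it was 0.491% against 0.224 to 0.309%. Results are therefore given for the other 15 libraries as well wherever Thy replicate 2 bears on them.

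Most stop-gain alleles were rare in every library. The median of their mean fractions over the 15 libraries was 0.135%, beside 0.118% for all 48897 alleles. The mean was under 0.1% for 696 of them, 0.1 to 0.5% for 1096 and 0.5% or more for 20. None had a count of 0 in all 16 libraries. Intervals and limits cover counting error only.

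An allele was called counted in a library when its fraction was 1% or more with at least 5 reads. In the 15 libraries, 27 of 1812 stop-gain alleles (1.49%) were counted at least once, against 500 of 24249 missense alleles (2.06%) and 238 of 7893 synonymous alleles (3.02%), where 2.31% of all 48897 alleles were counted. Among the libraries of replicate 1, 13 stop-gain alleles (0.717%) were counted, against 209 missense alleles (0.862%) and 102 synonymous alleles (1.29%), beside 1.01% of all alleles. Among those of replicate 2, 127 stop-gain alleles (7.01%) were counted, against 1643 missense alleles (6.78%) and 473 synonymous alleles (5.99%), beside 6.39% of all alleles. Without Thy, 15 stop-gain alleles (0.828%), 324 missense alleles (1.34%) and 157 synonymous alleles (1.99%) were counted in replicate 2, beside 1.54% of all alleles. The stop-gain share thus lay below the share of all alleles in the 15 libraries, in replicate 1 and in replicate 2 without Thy, and above it in replicate 2 with the Thy library included. These differences in share were not tested.

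The mix of base changes differs between the classes, so the shares were also taken within transitions, the changes that errors of this polymerase favour, and within transversions. Of the stop-gain transitions, 14 of 425 (3.29%) were counted in the 15 libraries, against 359 of 6704 missense transitions (5.36%) and 188 of 4189 synonymous transitions (4.49%). For G>A the shares were 5 of 219 stop-gain alleles (2.28%), 29 of 936 missense alleles (3.10%) and 4 of 115 synonymous alleles (3.48%). For C>T they were 7 of 103 (6.80%), 119 of 1535 (7.75%) and 81 of 1325 (6.11%). For A>G they were 2 of 102 (1.96%), 74 of 1929 (3.84%) and 55 of 1766 (3.11%). Among transversions, 13 of 1387 stop-gain alleles (0.937%), 141 of 17545 missense alleles (0.804%) and 50 of 3704 synonymous alleles (1.35%) were counted. There the stop-gain share lay above the missense share and below the synonymous share.

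Few stop-gain alleles were widespread, and the class is also the smallest. A single stop-gain allele was counted in all 8 libraries of replicate 1 and another in all 8 of replicate 2 (0.0552% of the class each), against 15 and 23 missense alleles (0.0619% and 0.0948%) and 9 and 5 synonymous alleles (0.114% and 0.0633%). The highest mean over 8 libraries was 2.21% for a stop-gain allele in replicate 1, against 17.8% for a missense allele and 18.5% for a synonymous allele. In replicate 2 the highest means were 3.07% for stop-gain, 22.4% for missense and 4.16% for synonymous alleles. The number of alleles in each class sets how high its top allele is likely to be, and these heights were not tested.

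Both widespread stop-gain alleles lay in ND3, a short membrane subunit of complex I, and both turned a TGA tryptophan codon into TAA. G9526A (W23*) stops the protein at codon 23 of 115 and would remove 80.9% of it. Its fraction in the libraries of replicate 2 had a lowest value of 1.56% in CD24_CD29, a median of 3.14% and a highest value of 4.39% in Thy_6C3, with a mean of 3.07% ± 0.833 (SD, n = 8). In the libraries of replicate 1 it had a lowest value of 0.0683% in CD24_CD29, a median of 0.262% and a highest value of 0.882% in Thy, with a mean of 0.338% ± 0.274 (SD, n = 8). The ranges did not overlap, and CD24_CD29 was the lowest subset in both numbers. The counting intervals of those CD24_CD29 libraries were 1.30 to 1.86% in replicate 2, from 122 of 7827 reads, and 0.0341 to 0.122% in replicate 1, from 11 of 16117 reads.

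G9775A (W106*) stops ND3 near its end and would remove 8.70% of the protein. Replicate 1 libraries had a lowest value of 1.66% in 6C3, a median of 2.40% and a highest value of 2.69% in CD29, with a mean of 2.21% ± 0.446 (SD, n = 8). Across replicate 2 the lowest value was 0.0188% in CD24, the median was 0.0901% and the highest was 0.221% in CD29, with a mean of 0.102% ± 0.0707 (SD, n = 8). The lowest library of replicate 1 was 7.52 times the highest of replicate 2, so the 2 ND3 alleles divided the libraries by replicate number in opposite ways. Whether a number marks a mouse, a sorting day or something else is not in the labels. These 2 alleles gave ND3 the highest mean of its stop-gain transitions of any gene, 0.288% ± 0.0640 (SD, n = 15 libraries, 13 alleles), and the lowest was 0.0727% ± 0.0103 in ND4 (49 alleles), a large antiporter-like subunit of complex I.

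**Figure D1:**
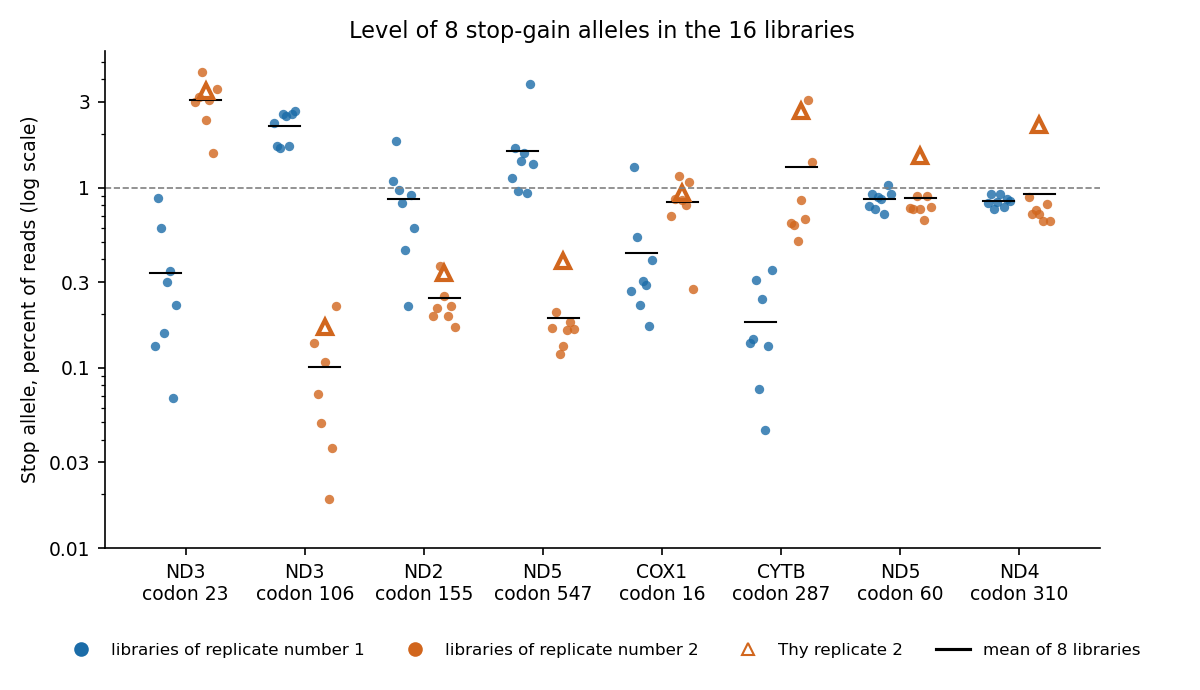
Percent of reads carrying each of 8 stop-gain alleles (log axis), with a point per library, blue for replicate 1 and orange for replicate 2, a triangle for Thy replicate 2, and a bar for the mean of 8 libraries. ND3 codon 23 is high in replicate 2, ND3 codon 106 and ND5 codon 547 are high in replicate 1, and ND5 codon 60 stays between 0.663% and 1.04% in all libraries but Thy replicate 2.

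ND5, the largest antiporter-like subunit of complex I, held 7 of the 27 alleles counted in the 15 libraries. It also has the most possible stop-gain alleles of any gene, 276 of 1812, and whether its share differs was not tested. A13380T (K547*) would remove 10.05% of the protein. Values of replicate 1 were 0.934% at the lowest, in CD24, 1.39% at the median and 3.75% at the highest, in CD24_CD29, with a mean of 1.60% ± 0.910 (SD, n = 8). In the libraries of replicate 2 it had a lowest value of 0.119% in Thy_6C3, a median of 0.166% and a highest value of 0.393% in Thy, with a mean of 0.190% ± 0.0860 (SD, n = 8). It was counted in 6 libraries, all of replicate 1, and CD24_CD29 lay well above the rest, where the next highest value was 1.66% in Thy.

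A further allele of the same lysine codon, A13381G, turns AAA into AGA in place of TAA. It was counted in CD24_CD29 replicate 1 alone, at 1.03%, and the next highest value was 0.411% in Thy_6C3 replicate 1. The same library was therefore the highest for both alleles of codon 547. The tables give counts per position and do not show whether the 2 changes sat on the same molecules.

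The remaining ND5 alleles each reached 1% in few libraries. C12087A (R116*) was at 1.47% in CD24_CD29 replicate 1 and at 0.316 to 0.710% elsewhere. C13276A (S512*) and G12798T (E353*) were at 1.07% and 1.05% in Thy_6C3 replicate 2, and C13479T (Q580*), which would remove 4.61% of the protein, was at 1.37% in CD24_CD29 replicate 2. C13479T had 0 counts in Thy replicate 1 and was at 0.190% or less in every library but CD24_CD29 replicate 2.

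COX1 and CYTB carry the catalytic centres of complexes IV and III. G5373A turns a COX1 glycine codon near the start, G16, into AGA and would remove 97.1% of the protein. Replicate 2 libraries had a lowest value of 0.274% in CD29, a median of 0.858% and a highest value of 1.16% in Thy_6C3, with a mean of 0.834% ± 0.271 (SD, n = 8). Across replicate 1 the lowest value was 0.171% in CD24_CD29, the median was 0.295% and the highest was 1.30% in Thy, with a mean of 0.435% ± 0.366 (SD, n = 8). The ranges overlapped. Apart from Thy replicate 2, G5373A was the only stop-gain allele counted under both numbers, and with that library included, G11919T was as well. The same share over all counted alleles is not given here, so this does not set stop-gain alleles apart.

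A15004G turns a CYTB lysine codon, K287, into AGA and would remove 24.9% of the protein. Values of replicate 2 were 0.509% at the lowest, in Thy_6C3, 0.763% at the median and 3.07% at the highest, in CD24_CD29, with a mean of 1.30% ± 1.01 (SD, n = 8). In the libraries of replicate 1 it had a lowest value of 0.0451% in CD24, a median of 0.141% and a highest value of 0.348% in CD29, with a mean of 0.179% ± 0.109 (SD, n = 8). The ranges did not overlap, and within replicate 2 the values of 3.07%, 2.66% and 1.39% in CD24_CD29, Thy and CD29 stood above the other 5.

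T4377A turns a leucine codon of ND2, another antiporter-like subunit of complex I, into TAA and would remove 55.4% of the protein. Replicate 1 libraries had a lowest value of 0.220% in CD24, a median of 0.867% and a highest value of 1.82% in Thy, with a mean of 0.862% ± 0.483 (SD, n = 8). In the libraries of replicate 2 its highest value was 0.369%, with a mean of 0.244% ± 0.0720 (SD, n = 8). The ranges overlapped only through CD24 of replicate 1.

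Leaving out Thy replicate 2 changed none of these splits. Over the other 7 libraries of replicate 2 the mean was 3.02% for G9526A, 0.0920% for G9775A, 0.161% for A13380T, 0.819% for G5373A, 1.11% for A15004G and 0.230% for T4377A.

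Other counted alleles were largely private to 1 library. In replicate 1, 10 of the 13 counted stop-gain alleles were counted in exactly 1 library, and in replicate 2 without Thy, 11 of 15 were. The same share over all counted alleles is not given here, so these counts do not set stop-gain alleles apart. In ND6, the only gene of the 13 on the other strand, C14019T (G18*) was at 1.58% in CD24_CD29 and 1.53% in CD29 of replicate 2, and at 0.400% or less elsewhere. C13653T (G140*) of ND6 was at 1.77% in Thy replicate 1 and at 0.680% or less elsewhere. C3364A (S205*) of ND1, a subunit at the quinone site of complex I, was at 1.49% in Thy_6C3 replicate 2, and the other 15 values did not pass 0.411%.

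COX2, which carries the copper centre that takes electrons from cytochrome c, held 3 of the 27 counted alleles. It has 113 of the 1812 possible ones. G7613A (G201*) was at 1.36% in Thy_6C3 replicate 2, at 0.362% in CD29 replicate 2 and at 0 counts in CD24_CD29 replicate 2. C7595T (Q195*) was present in every library, from 0.195% in Thy replicate 1 to 1.15% in CD24_CD29 replicate 1. A7157T (K49*) was at 1.01% in Thy_6C3 replicate 1 and at 0.379% or less elsewhere. T8235A (S103*) in ATP6, the proton channel subunit of complex V, reached 1.29% in CD24_CD29 replicate 2.

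No stop-gain allele of COX3 or ATP8 was counted in the 15 libraries. COX3, the third core subunit of complex IV, has 126 possible stop-gain alleles, and its highest on average was G9063T (E153*) at 0.423%. ATP8, a small subunit of the stator of complex V, has 47, and its highest was C7812A (S16*) at 0.348%. Whether these genes differ from the other 11 was not tested.

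Counted stop-gain transitions lay mostly toward the ends of the proteins. Of the transitions that would stop a protein in its first 20%, 5 of 74 (6.76%) were counted, of those between 20% and 80%, 2 of 265 (0.755%), and of those in its last 20%, 7 of 86 (8.14%). Missense transitions were counted at 5.48%, 5.42% and 5.03% over the same stretches, and synonymous transitions at 3.93%, 4.58% and 4.76%. The 2 counted in the middle stretch were G5884A (W186*) of COX1 and A15004G (K287*) of CYTB. At a limit of 0.5% in place of 1%, 15 of 74 (20.3%), 46 of 265 (17.4%) and 27 of 86 (31.4%) stop-gain transitions were counted. The pattern was noticed in these counts and was not tested.

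**Figure D2:**
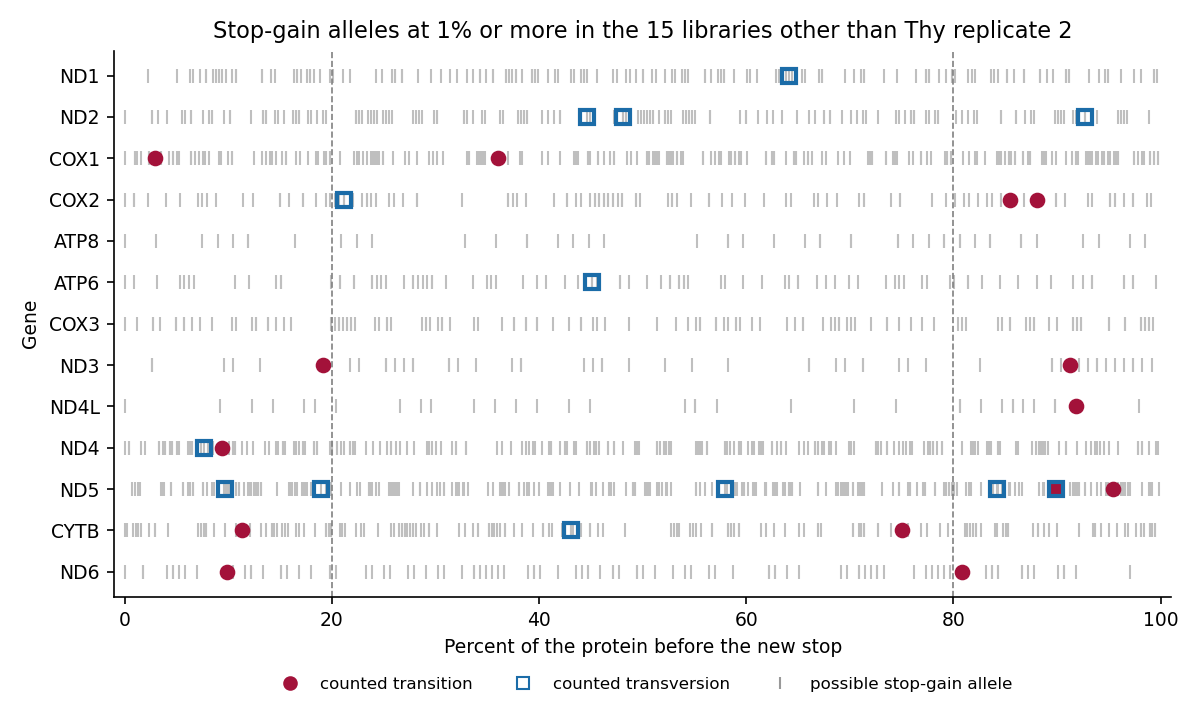
Place of stop-gain alleles along each of the 13 proteins (x axis, percent of the protein before the new stop; a row per gene), with grey ticks for possible alleles, filled circles for counted transitions and open squares for counted transversions in 15 libraries. Dashed lines mark 20% and 80%, and 2 of the 14 filled circles lie between them.

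Over all changes, 8 of the 27 counted alleles would remove over 80% of the protein and 10 would remove under 20%, where 20.3% and 21.2% of all 1812 alleles do so. G5373A in COX1, T10273A (L36*) in ND4, C14019T in ND6 and G11919T (E60*) in ND5 were among those that would remove over 90%. T10273A reached 1.16% in Thy_6C3 replicate 2. A4874T (K321*) in ND2 and C10147T (Q91*) in ND4L, a small complex I subunit, would remove 7.25% and 8.16%.

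Some of the highest averages belonged to alleles with almost the same level in the 15 libraries, unlike the alleles above. Of the 20 alleles at 0.5% or more on average, 13 had a coefficient of variation under 25% over the 15 libraries, from 8.52 to 20.5%, and the other 7 had one of 43.6 to 126%. Of those 13, 11 were G>T or C>A changes and 10 closed a glutamate codon. G11919T (E60*) in ND5 ran from 0.663% in CD24 replicate 2 to 1.04% in CD24_CD29 replicate 1 over the 15 libraries, and was at 1.50% in Thy replicate 2. G7451T (E147*) in COX2 ran from 0.543 to 0.779% and was at 1.001% in Thy replicate 2. T11095G (M310*) in ND4 ran from 0.656 to 0.923% over the 15, and stood at 2.23% in Thy replicate 2.

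Evenness moved with the base change. The median coefficient of variation per allele over the 15 libraries was 16.1% for stop-gain and 18.3% for synonymous G>T alleles, and 17.6% for stop-gain and 17.5% for synonymous C>A alleles. For transitions it was 107% and 92.9% for G>A, 102% and 107% for C>T, and 90.9% and 77.3% for A>G, stop-gain before synonymous. Across alleles, the means of replicate 1 were set against the means of replicate 2 without Thy. Pearson's r was 0.975 for the 86 stop-gain G>T alleles and 0.227 for the 219 stop-gain G>A alleles, with Spearman's rho of 0.965 and 0.645. These alleles share libraries, depth and neighbouring bases and are not independent replicates.

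The bases before the codon moved with the level of the G>T alleles. The 21 that stand in TAGA, read on the reference strand with the changed G in the third place, averaged 0.431% ± 0.0364 (SD, n = 15), and the other 65 averaged 0.285% ± 0.0255. TAGA holds 7 of the 8 stop-gain G>T alleles at 0.5% or more, E60 of ND5 and E147 of COX2 among them. The motif was not set in advance, the averages include these high alleles, and it was not tested. Missense G>T alleles in TAGA averaged 0.331% (13 alleles), and those with TA before the G and another base after it averaged 0.331% (154 alleles), against 0.283% for the other 945. On the opposite strand the same letters read TCTA. The single stop-gain C>A allele there, C13776A (E99*) of ND6, averaged 0.567%, against 0.238% for the 158 other stop-gain C>A alleles that follow a T. For missense C>A alleles the same 2 averages were 0.385% (84 alleles) and 0.290% (480 alleles).

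Stop-gain levels differed widely between base changes. Mean fractions over the 15 libraries were highest for G>T, 0.320% ± 0.0277 (SD, n = 15), and lowest among the changes with 50 or more alleles for C>G, 0.0470% ± 0.00656. Stop-gain alleles were therefore compared with missense and synonymous alleles of the same base change within each library, as a ratio of mean fractions. A>G stop-gain alleles, which all turn a lysine codon into AGA or AGG, had 0.627 ± 0.0681 times the missense mean and 0.629 ± 0.0750 times the synonymous mean (SD, n = 16), and both ratios were below 1 in 16 of 16 libraries. All 102 follow an A in the sequence and 101 also precede one. Against alleles with the same bases on both sides, an alternative added after these values were seen, the ratio was 0.696 ± 0.135 to missense alleles, below 1 in 16 of 16 libraries, and 1.04 ± 0.165 to synonymous alleles.

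Within the A>G alleles, the level moved with the length of the run of A that holds the base. It averaged 0.122% in runs of 1 to 3 (24 alleles), 0.0874% in runs of 4 to 5 (64 alleles) and 0.0321% in runs of 6 or more (14 alleles). A15004G of CYTB lies in a run of 3.

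C>T stop-gain alleles, most of which close glutamine codons, had 0.853 ± 0.129 times the missense mean and 1.07 ± 0.184 times the synonymous mean (SD, n = 16). Against alleles with the same neighbours the ratios were 0.649 ± 0.102, below 1 in 16 of 16 libraries, and 0.764 ± 0.121, below 1 in 15 of 16. With medians over alleles in place of means the ratio to missense alleles was 1.31, on the other side of 1, and the ratio to synonymous alleles was 1.68.

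G>A stop-gain alleles had 1.11 ± 0.187 times the missense mean and 0.819 ± 0.198 times the synonymous mean (SD, n = 16). To missense alleles the ratio was 0.974 in replicate 1 and 1.25 in replicate 2 and was below 1 in 5 of 16 libraries. To synonymous alleles it was 0.949 in replicate 1 and 0.689 in replicate 2 and was below 1 in 14 of 16. Against alleles with the same neighbours the ratios were 1.04 ± 0.260 to missense and 0.650 ± 0.298 to synonymous alleles, the second at 0.9005 in replicate 1 and 0.401 in replicate 2. G>A alleles fell into codon groups with different levels. TGA tryptophan to TAA averaged 0.132% ± 0.0198 over 93 alleles, including both ND3 alleles, whereas GGA glycine to AGA averaged 0.0663% ± 0.00889 over 101 alleles and GGG to AGG 0.0588% ± 0.0149 over 20 (SD, n = 15). With new TAA and TAG codons alone, the G>A ratios were 1.55 to missense and 1.14 to synonymous alleles. Leaving out both ND3 alleles as well, an alternative added after these values were seen, they were 1.23 ± 0.212 to missense and 0.910 ± 0.238 to synonymous alleles, the second below 1 in 9 of 16 libraries. The level also differed with the base before. G>A averaged 0.124% after a T (120 alleles), 0.121% after a C (22), 0.0518% after a G (5) and 0.0396% after an A (72). Every tryptophan allele here follows a T, so the 22 after a C are glycine alleles, with a level near that after a T.

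Among the transversions, stop-gain T>G alleles had 1.26 ± 0.0233 times the missense mean and 1.34 ± 0.0342 times the synonymous mean, and with neighbours matched the ratio to missense alleles was 1.01 ± 0.0309 and the ratio to synonymous alleles was 0.372 ± 0.0619, below 1 in 16 of 16 libraries (31 synonymous alleles). Stop-gain T>A alleles had 1.04 ± 0.0382 and 1.01 ± 0.0403 times the missense and synonymous means, and 0.984 ± 0.0292 and 0.825 ± 0.0663 times with neighbours matched, the second below 1 in 16 of 16. Stop-gain G>T alleles had 1.11 ± 0.0222 and 1.27 ± 0.0376 times those means and stayed above missense alleles with neighbours matched, at 1.12 ± 0.0201. Stop-gain C>A alleles had 0.906 ± 0.00866 and 0.833 ± 0.0174 times those means, and 1.001 ± 0.0162 and 1.003 ± 0.0363 times with neighbours matched (SD, n = 16 each).

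**Figure D3:**
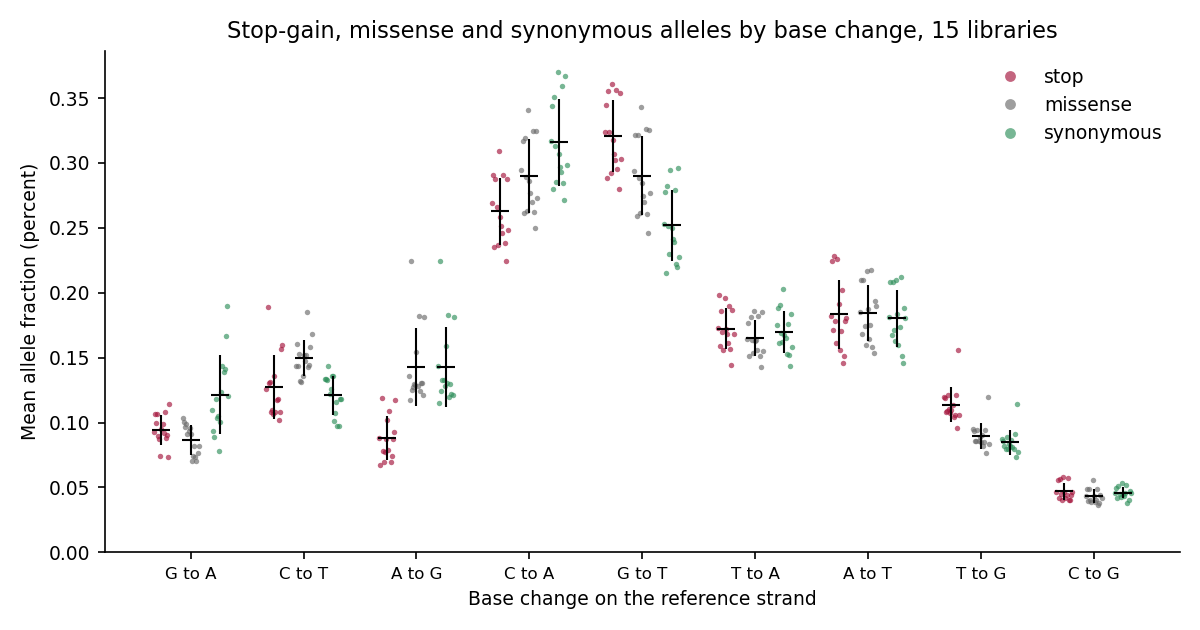
Mean allele fraction (percent) of stop-gain, missense and synonymous alleles by base change on the reference strand, with a point per library for 15 libraries and a bar for the mean ± SD. Stop-gain A to G alleles lie at 0.0878% on average, below 0.143% for both other classes, whereas stop-gain G to T alleles lie at 0.320%, above 0.290% and 0.252%.

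The stop-gain load of a library was the sum of the fractions of all 1812 alleles. It ran from 234 to 306% in the 15 libraries and was 710% in Thy replicate 2. By subset it was 508% ± 286 in Thy, 296% ± 0.976 in CD24_CD29, 293% ± 3.15 in Thy_6C3, 272% ± 0.0844 in CD29, 267% ± 11.5 in CD45, 259% ± 15.04 in CD105, 257% ± 0.197 in 6C3 and 240% ± 8.64 in CD24 (SD, n = 2 each). In this order, Thy and CD24_CD29, CD29 and CD45, CD45 and CD105, and CD105 and 6C3 differed by less than the larger of their SDs, and the other neighbours by more. An SD of 2 libraries measures spread poorly, and the order was not tested. The fractions of transitions alone summed to 36.3 to 53.5% in all 16 libraries, and Thy replicate 2, at 52.2%, was inside the range of the other 15. These are sums of fractions and not shares of the load.

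Alleles at 1% or more made a small part of the load in the 15 libraries. The whole loads of 6C3 replicate 1 and CD24_CD29 replicate 2 were 257% and 297%. Summed fractions at 1% or more ran from 1.66% in the first, the lowest, to 13.4% in the second, the highest. Replicates 1 and 2 gave 11.0% and 13.4% in CD24_CD29, 7.57% and 12.9% in Thy_6C3, 4.04% and 7.50% in CD29, 4.52% and 3.00% in CD45, 4.07% and 2.39% in CD105, 1.66% and 3.19% in 6C3, and 1.70% and 3.09% in CD24. Thy gave 9.31% and 150%. Both CD24_CD29 libraries thus lay above every library of CD29, CD45, CD105, 6C3 and CD24, and they also had the lowest coverage of their numbers. The number of counted stop-gain alleles was 6 and 8 in CD24_CD29, 5 and 8 in Thy_6C3 and 1 to 4 in the libraries of the other subsets, except 6 and 114 in Thy. Counted synonymous alleles numbered 60 and 89 in CD24_CD29 and 23 and 52 in Thy_6C3, against 24 in Thy replicate 1 and 17 to 33 in the libraries of the 5 subsets other than Thy. Counted alleles of all kinds numbered 280 and 416 in CD24_CD29, 142 and 266 in Thy_6C3, 147 in Thy replicate 1 and 98 to 202 in those 5 subsets. Whether stop-gain counts differ from those of all alleles was not tested.

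**Figure D4:**
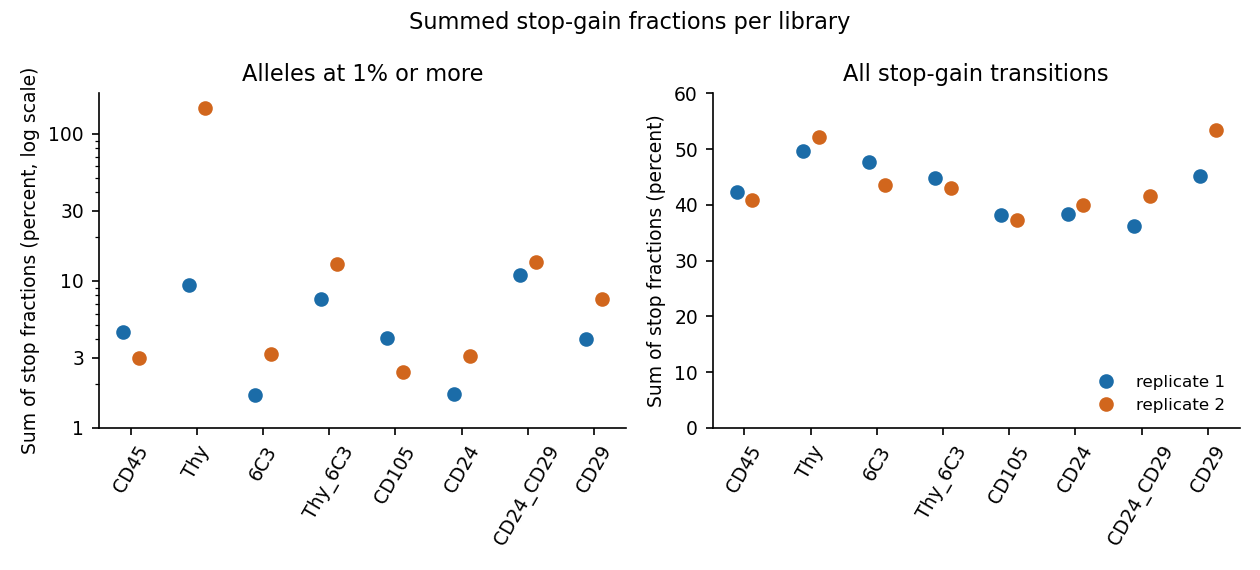
Sum of stop-gain fractions in each library by sorted subset, blue for replicate 1 and orange for replicate 2. Left, alleles at 1% or more on a log axis, 150% in Thy replicate 2 and 1.66 to 13.4% in the other 15; right, all stop-gain transitions on a linear axis, 36.3 to 53.5% in all 16.

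Thy replicate 2 held 114 counted stop-gain alleles, of which 111 were counted nowhere else. Of the 114, 89 were T>G and 10 were A>C, changes that no other library had at 1% in a stop-gain allele. The fractions of its T>G and A>C stop-gain alleles summed to 274%, against 32.1 to 51.6% in the other 15. Its remaining stop-gain alleles summed to 436%, against 202 to 266%. Among its T>G alleles, 71 turned the methionine codon ATA into AGA, the commonest stop-gain change there, with T11095G of ND4 at 2.23%, T10046G (M57*) of ND4L at 2.18% and T3022G (M91*) of ND1 at 1.94%. Over the other 15 libraries, the highest value of T3022G was 0.695%. Thy replicate 1 had 0 T>G or A>C stop-gain alleles at 1%. The source of these changes was not tested.

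Differences between subsets were tested for each allele with edgeR over all 3487 alleles that were counted in at least 1 library, of which 138 were stop-gain. No allele passed an adjusted p of 0.05 over all subsets or in any of the 8 contrasts of a subset with the mean of the other 7 (0% called in each of the 9 tests). At an unadjusted p under 0.05, 52 alleles passed over all subsets, 1 of them stop-gain, and between 4 in CD45 and 1700 in Thy passed in a contrast. DESeq2 called 18 alleles over all subsets, none of them stop-gain. In its contrasts it called 58.1% of alleles in Thy and 89 of 138 stop-gain members (64.5%), 0.258% in Thy_6C3 and 1 member (0.725%), and 2.04% in CD24_CD29 and 2 members (1.45%). Of the 89 in Thy, 78 were T>G and 8 were A>C, and all 89 were higher in Thy. Alleles entered these fits only if at least 1 library reached 1%, and 111 of the 138 stop-gain members did so in Thy replicate 2 alone. Calls in Thy among those members cannot show a difference of Thy, since that library let them in. T14637A, A4874T, G5884A, C14274T and C10147T, described next, likewise reached 1% only in the subset where they were high.

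T14637A (W165*) in CYTB had the smallest p of any stop-gain allele. Its fraction was 1.07% and 0.339% in Thy replicates 1 and 2, against a lowest value of 0.103%, a median of 0.157% and a highest value of 0.210% in the other 14 libraries. Both Thy libraries lay above all others. The mean of all stop-gain T>A alleles was 0.400% in Thy replicate 2 as well, against 0.144 to 0.198% in the other 15 libraries, and its part in this allele's value was not tested. The log2 odds ratio was 1.97 and edgeR's adjusted p was 0.0985, so the allele did not pass, and DESeq2 gave an adjusted p of 0.0159. Without Thy replicate 2 edgeR's adjusted p was 0.0178, and with the replicate number as a block it was 0.0817, where 2 alleles, none stop-gain, passed in Thy. Over its 20 alternatives it ran from 0.00433 to 0.150.

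In Thy_6C3, A4874T (K321*) of ND2 was at 1.37% and 0.596% in replicates 1 and 2, against 0.146%, 0.299% and 0.506% as lowest, median and highest of the other 14 libraries. Its log2 odds ratio was 1.77, with an edgeR adjusted p of 0.903. G5884A (W186*) of COX1 was at 1.22% and 0.406% in Thy_6C3, against 0.00992%, 0.130% and 0.316% elsewhere, with a log2 odds ratio of 2.67 and adjusted p-values of 0.9996 by edgeR and 0.0367 by DESeq2, the lowest of its 20 alternatives. For both alleles the 2 Thy_6C3 libraries lay above the other 14, and neither allele passed in edgeR.

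In CD24_CD29, 2 glutamine codons with the same number, Q44 of ND4 and Q44 of CYTB, lay on opposite sides of the other subsets. C10296T (ND4) was at 0.0259% and 0.0645% in CD24_CD29 replicates 1 and 2, against 0.149%, 0.278% and 1.26% as lowest, median and highest of the other 14. C14274T (CYTB) was at 0.270% and 1.58% in CD24_CD29, against 0.00785%, 0.0679% and 0.206% elsewhere. Neither range overlapped. The log2 odds ratios were -2.92 and 3.61, with edgeR adjusted p-values of 0.408 and 0.468 and DESeq2 adjusted p-values of 0.0218 and 0.0317. Over the 20 alternatives the adjusted p ran from 0.0218 to 0.602 for C10296T and from 0.0317 to 0.9997 for C14274T.

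C10147T (Q91*) of ND4L shows how far 2 libraries of a subset can lie apart. It was at 1.85% in CD24_CD29 replicate 2 (exact 95% interval 1.53 to 2.21%, 119 of 6436 reads) and at 0 of 13187 reads in CD24_CD29 replicate 1, which allows up to 0.0227%. Its edgeR adjusted p in CD24_CD29 was 0.9996, and without CD24_CD29 replicate 1 it was 0.0467, the lowest of its alternatives. For the other contrasts, the smallest edgeR adjusted p of a stop-gain allele was 0.978 in CD24 (A7157T of COX2), 0.985 in CD29 (C14274T of CYTB), 0.997 in 6C3 (T4404G, M164*, of ND2), 0.9998 in CD45 (T14637A of CYTB) and 0.9999 in CD105 (T4412A, W167*, of ND2).

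Within a replicate number the libraries did differ beyond counting error. A chi-square test of the 8 libraries called 13 of 13 counted stop-gain alleles in replicate 1, where 96.3% of all 493 alleles tested were called, and 127 of 127 in replicate 2, where 99.8% of 3126 were. Without Thy, 15 of 15 were called in replicate 2, where 98.0% of 753 alleles were. This test compares libraries and not subsets, and alleles entered it only if at least 1 library reached 1%, which favours alleles that differ.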

How the data were processed

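Per the labels, mitochondrial DNA was read by ATAC-seq with paired 100 bp reads. Per the submitters' processing notes, the tools were BWA 0.7.17, cutadapt 2.10 and bcl2fastq 2.20 and the builds mm10 and GRCm38, with no role stated. How quality filters, duplicate reads and nuclear copies of mitochondrial DNA were handled is not given in the sources used here, and each can change a low fraction. The deposited values are raw counts that the authors did not normalize: reads covering a position, and reads with each other base there.

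An allele fraction was its count divided by the coverage. Codons were read from the deposited reference bases with gene limits of GRCm38.p6 (RefSeq). A base in 2 frames was stop-gain if so in either. A ratio was given for base changes with at least 50 alleles in each class. The edgeR 4.0.16 quasi-likelihood fit (R 4.3.3, 8 residual degrees of freedom) took each library's alternative and reference counts as paired columns, with library terms and, for alternative counts, subset terms; p-values were adjusted over all alleles by the Benjamini-Hochberg method. DESeq2 1.42.0 was an alternative. The edgeR fit and the chi-square test were tested on simulated data. Replicate numbers paired the samples: deviations of same-numbered libraries from their subset means correlated over 0.1 in 28 of 28 subset pairs (0.343 to 0.863), so the fit with a replicate block was run as well. Python 3.11.15 with pandas 2.3.3 was used for the rest.

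Named alleles were those counted in all 8 libraries of a number, the 10 highest per number, the highest private allele of each library, the smallest p of each test, and the highest of each gene; others among the 27 counted alleles were named after their values were seen. The members and lists were chosen with earlier results of these data known.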

Additional observations from a re-analysis of the deposited data

How the results depend on the processing

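Of the results that answer a comparison, 72 of 97 values under other settings stayed close to the main value, and so did 265 of 272 that left out 1 library. Close meant within 1.5 times for a count, or still 0 for a count of 0. For a ratio or a load it meant within the SD over the 16 libraries, whichever side of 1 a ratio fell on. With DESeq2 the number of alleles called was 18 over all subsets, 2025 in Thy, 9 in Thy_6C3 and 71 in CD24_CD29, in place of 0 with edgeR. In Thy, edgeR called 2 with the replicate block, 1 with alleles at 0.5% or more and 2 with no fraction filter; the replicate block changed no other call. With each library left out in turn, edgeR's count ran from 0 to 2295 over all subsets, from 0 to 2395 in Thy, from 0 to 1 in 6C3 and from 0 to 161 in CD24, and each highest value came without Thy replicate 1, which leaves Thy replicate 2 alone to stand for Thy; the count in Thy was 1 without Thy replicate 2. In CD24_CD29 it ran from 0 to 23, the highest without CD24_CD29 replicate 1. In such fits the lone library is assumed to vary like the others. Counted stop-gain alleles numbered 131 at 0.5% and 2 at 2% in replicate 1, and 594 and 6 in replicate 2, in place of 13 and 127. With TAA and TAG alone they numbered 8 and 33. Leaving out a library gave 15 to 127 in replicate 2, the lowest without Thy. The ratio to synonymous alleles was 0.602 for G>A and 1.68 for C>T with medians over alleles, 1.14 for G>A with TAA and TAG alone, and 1.27 for C>T with alleles under 1% only. The ratio to missense alleles was 1.55 for G>A with TAA and TAG alone, and 1.31 and 1.12 for C>T with medians and with alleles under 1% only. Matching on both neighbouring bases, chosen after the data were seen, gave 0.764 and 0.649 for C>T and 1.04 and 0.696 for A>G, synonymous before missense. The mean stop-gain load of 299% over 16 libraries was 14.97% with alleles at 1% or more only, and without Thy replicate 2 the values were 272% and 5.96% over 15 libraries. The cause of these changes was not tested, other than where fewer alleles or libraries enter by construction. Each subset has 2 libraries.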
